A study of Caenorhabditis elegans with 2 samples.

Results

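The genes described here encode the proteins of the cytosolic ribosome of *Caenorhabditis elegans*. They were chosen by symbol, as the genes whose names begin with rpl- or rps- followed by a digit, together with *rla-0*, *rla-1* and *rla-2*, which encode the acidic stalk of the large subunit. These are 81 of the 20191 genes in the count tables, 31 of the small subunit, 47 of the large subunit and 3 of the stalk. The 71 genes for proteins of the mitochondrial ribosome are not among them. Chromosome I holds 25 members, chromosomes III and IV hold 18 each, chromosome II holds 10 and chromosome V holds 8. The X chromosome holds 2, *rpl-11.2* and *rpl-25.1*.

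A ribosome is a particle of ribosomal RNA and proteins in which the small subunit reads the mRNA and the large subunit joins the amino acids. Most of its proteins are needed in equal numbers, and their short, abundant mRNAs make up a large share of the mRNA of a growing cell. Worm embryos receive ribosomes from the mother and also transcribe these genes themselves.

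Transcripts were counted in single cells of embryos that had been enriched for the 100-200 cell stage, so other stages may be among them. The embryos came from *spr-5; met-2* mutants, which carry the allele b101 of *spr-5* on chromosome I and the allele n4256 of *met-2* on chromosome III, and from Wild Type (N2). SPR-5 is a demethylase of histone H3 lysine K4 and MET-2 is a methyltransferase of lysine K9. The mutant embryos were F1 progeny of mothers homozygous for both mutations, so that the enzymes were lost in mother and embryo alike. Each genotype has 1 library, made from many pooled embryos that were dissociated with chitinase, and the genotype therefore cannot be told apart from the library, the dissociation and the exact stage.

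A UMI (unique molecular identifier) counts 1 captured 3' end, and levels are given as CPM, the UMIs of a gene scaled by the UMI total of the cells in question. The mutant library held 686 cells with a median of 726.5 UMIs (411 to 5941) and 732058 UMIs in all, against 219 cells with a median of 2086 UMIs (758 to 66767) and 1013190 UMIs in Wild Type. In Wild Type 18 barcodes had more than 10000 UMIs and held 48.6% of all UMIs, whereas no mutant barcode was that large. The median cell took 1.98% of its UMIs from mitochondrially encoded genes in the mutants and 0.731% in Wild Type, and 11 cell barcodes were found in both libraries. *spr-5* was at 54.6 CPM in the mutants and 81.9 CPM in Wild Type and *met-2* at 27.3 CPM in the mutants and 63.2 CPM in Wild Type, and a 3' count does not show whether the protein is made. Markers of body wall muscle, hypodermis, intestine, germline, neurons and other mesoderm each defined a cluster, and no cluster met the rule for pharynx, glia and excretory cells or ciliated neurons. With 1 library per genotype no test between genotypes was possible, and all intervals below are 95% intervals that cover counting error only.

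Ribosomal protein transcripts as a whole were less abundant in the *spr-5; met-2* mutants. They gave 49731 UMIs in the mutants and 105124 UMIs in Wild Type, which is 6.79% (6.74 to 6.85) and 10.4% (10.3 to 10.4) of all UMIs. The summed level was 67933 CPM in the mutants and 103755 CPM in Wild Type, a ratio of 0.655 (0.648 to 0.662). Of the 81 members 80 had at least 20 UMIs over both libraries and entered the comparison of single genes. The remaining member, *rpl-42*, had no UMI in any cell of either library, and *rpl-37*, a large subunit protein, was the least covered of the others with 15 and 68 UMIs. How reads that match several places were counted is not given in the sources used here, so the low values of these genes may not be their true levels.

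The 80 members had a median log2 ratio of -0.69, against 0.22 over all 6839 genes with as many UMIs. This ratio was taken of CPM + 10, which understates the change of low genes. By point value 70 members were lower in the mutants and 10 were higher. How many of all genes were lower by point value was not counted. The ratio was below 0.5 for 29 members, while 5.35% of all genes were that low, and it was above 2 for 1 member, against 20.9% of all genes. The interval of the ratio lay below 1 for 65 members (13.7% of all genes) and above 1 for 8 members (34% of all genes), and it included 1 for 7 members. Scaling by the median of ratios across genes in place of the total shifts every log2 ratio by -0.27, and under it 75 members had an interval below 1 and 2 had one above.

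**Figure D1:**
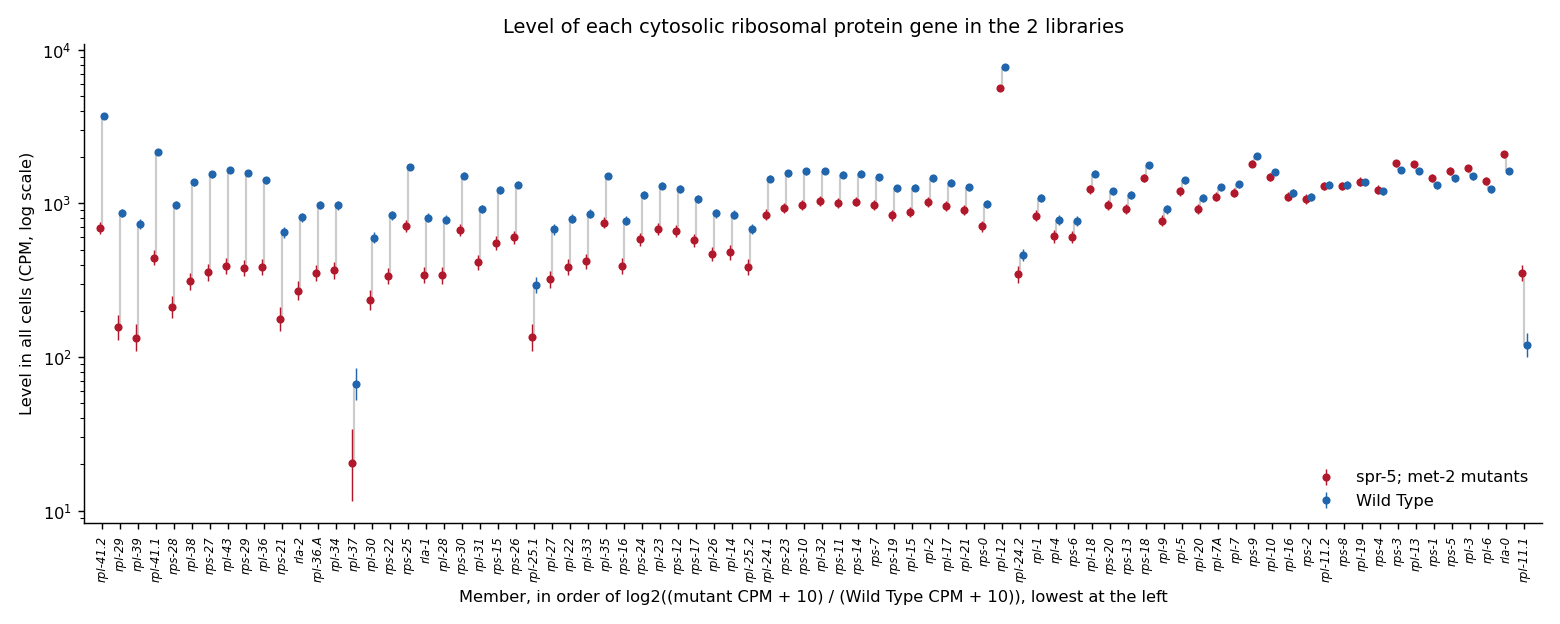
Level of the 80 counted members in all cells of the *spr-5; met-2* mutants (red) and of Wild Type (blue), in CPM on a log axis, with 95% Poisson intervals as bars and members ordered by log2 ratio. The gap is widest for the small proteins at the left such as *rpl-41.2* (690 and 3702 CPM) and closes to the right, where *rpl-11.1* (352 and 120 CPM) is the only member more than 2-fold higher in the mutants.

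The difference was not even across members, and the lowest ratios belonged to the smallest proteins of both subunits. *rpl-41.2*, one of a pair of genes for the smallest protein of the ribosome, which lies at the bridge between the subunits, had 505 UMIs (690 CPM) in the mutants and 3751 UMIs (3702 CPM) in Wild Type. Its ratio was 0.186 (0.169 to 0.205). Its copy *rpl-41.1* had 325 UMIs (444 CPM) in the mutants and 2201 UMIs (2172 CPM) in Wild Type, a ratio of 0.204 (0.181 to 0.230). Both genes kept nearly the same proportion, *rpl-41.1* giving 39.2% (35.8 to 42.6) of the UMIs of the pair in the mutants and 37.0% (35.8 to 38.2) in Wild Type.

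In the large subunit, *rpl-29* (chromosome IV, 13882225 to 13882618, plus strand, ce11) encodes a small protein of the subunit surface. It had 114 UMIs (156 CPM) in the mutants and 878 UMIs (867 CPM) in Wild Type, a ratio of 0.180 (0.147 to 0.219). *rpl-39* (chromosome V, 7775742 to 7776079, minus strand) encodes a protein that lines the tunnel through which the new chain leaves the ribosome, and it had 98 UMIs (134 CPM) in the mutants and 744 UMIs (734 CPM) in Wild Type. Its ratio of 0.182 had an interval of 0.146 to 0.225 that overlapped that of *rpl-29*. *rpl-38*, whose mouse counterpart is known for its part in the translation of Hox mRNAs, had 228 UMIs (311 CPM) in the mutants and 1389 UMIs (1371 CPM) in Wild Type. *rpl-43* encodes a zinc-binding protein and had 286 UMIs (391 CPM) in the mutants and 1678 UMIs (1656 CPM) in Wild Type. *rpl-36*, another protein of the large subunit, had 281 UMIs (384 CPM) in the mutants and 1429 UMIs (1410 CPM) in Wild Type. The ratios of these members were 0.227 for *rpl-38*, 0.236 for *rpl-43* and 0.272 for *rpl-36*.

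In the small subunit the lowest ratios were those of *rps-28*, *rps-27* and *rps-29*. *rps-28* (chromosome IV, 1659691 to 1659997, plus strand) encodes a protein near the exit of the mRNA channel and had 155 UMIs (212 CPM) in the mutants and 985 UMIs (972 CPM) in Wild Type, a ratio of 0.218 (0.183 to 0.258). *rps-27*, which encodes a zinc-binding protein, had 260 UMIs (355 CPM) in the mutants and 1564 UMIs (1544 CPM) in Wild Type, a ratio of 0.230. *rps-29*, which encodes a zinc-binding protein of the head of the subunit, had 278 UMIs (380 CPM) in the mutants and 1603 UMIs (1582 CPM) in Wild Type, a ratio of 0.240. The summed ratios of the subunits were close, that of the large subunit being slightly lower. The summed level of the small subunit was 26965 CPM in the mutants and 40522 CPM in Wild Type, a ratio of 0.665 (0.654 to 0.677), and that of the large subunit was 38262 CPM in the mutants and 59997 CPM in Wild Type, a ratio of 0.638 (0.629 to 0.647). Single ratios ran between 0.218 and 1.11 in the small subunit, where 25 of 31 members had an interval below 1 and 3 had one above, and between 0.180 and 2.93 in the large subunit, where 38 of 46 had one below 1 and 4 had one above.

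The stalk genes differed widely among themselves. P0, the product of *rla-0*, anchors the stalk on the large subunit, and the acidic proteins P1 and P2, from *rla-1* and *rla-2*, bind to it and recruit the elongation factors. *rla-0* had 1532 UMIs (2093 CPM) in the mutants and 1641 UMIs (1620 CPM) in Wild Type, a ratio of 1.29 (1.2 to 1.39). In contrast, *rla-1* had 251 UMIs (343 CPM) in the mutants and 816 UMIs (805 CPM) in Wild Type, a ratio of 0.426 (0.368 to 0.491). *rla-2* had 198 UMIs (270 CPM) in the mutants and 822 UMIs (811 CPM) in Wild Type, a ratio of 0.333 (0.284 to 0.390). The anchor was thus higher and both of its partners were lower in the mutants. Among cells of 1000 to 2000 UMIs alone, *rla-0* was at 2084 CPM in the mutants and 2076 CPM in Wild Type, and its interval of 0.851 to 1.19 included 1. The annotated transcript of *rla-0* is 1033 nucleotides long, and those of *rla-1* and *rla-2* are 441 and 451 nucleotides long.

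Of the other members with an interval above 1, *rpl-3*, *rpl-6* and *rpl-13* belong to the large subunit and *rps-1*, *rps-3* and *rps-5* to the small subunit. *rpl-3*, whose product reaches towards the site of peptide bond formation, had 1240 UMIs (1694 CPM) in the mutants and 1523 UMIs (1503 CPM) in Wild Type, a ratio of 1.13 (1.04 to 1.22). *rpl-6* had 1024 UMIs (1399 CPM) in the mutants and 1250 UMIs (1234 CPM) in Wild Type, a ratio of 1.13. The ratios of *rps-5*, *rps-1*, *rpl-13* and *rps-3* were between 1.10 and 1.11. None of these 6 members kept an interval above 1 under median of ratios scaling or without the Wild Type barcodes over 10000 UMIs, whereas *rla-0* and *rpl-11.1* kept theirs under both.

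The most abundant member in both libraries was *rpl-12*, which encodes a protein at the base of the stalk, with 4131 UMIs (5643 CPM) in the mutants and 7799 UMIs (7697 CPM) in Wild Type, a ratio of 0.733 (0.706 to 0.761). The gap to the next member was wide in each library. In the mutants *rla-0* came next at 2093 CPM, and in Wild Type *rpl-41.2* came next at 3702 CPM. The order of the members therefore changed, with a rank correlation of 0.66 between the CPM of the libraries over the 80 members. *rps-9*, a small subunit protein that helps to form the mRNA entry, had 1330 UMIs (1817 CPM) in the mutants and 2065 UMIs (2038 CPM) in Wild Type. *rps-3*, its neighbour at the mRNA entry, had 1339 UMIs (1829 CPM) in the mutants and 1679 UMIs (1657 CPM) in Wild Type. *rpl-13*, of the large subunit, had 1318 UMIs (1800 CPM) in the mutants and 1642 UMIs (1621 CPM) in Wild Type. The median member was at 710 CPM in the mutants and 1261 CPM in Wild Type, and 25 members were above 1000 CPM in the mutants and 53 in Wild Type.

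The ratio of a member followed the length of its mRNA. Across the 80 members the log2 ratio had a rank correlation of 0.907 with the annotated transcript length and 0.906 with the length of the protein. These are descriptions across genes, which share the same libraries and are not independent replicates. The 8 members with transcripts under 300 nucleotides summed to 2294 CPM in the mutants and 10952 CPM in Wild Type, a ratio of 0.209 (0.199 to 0.220). The 7 members of 300 to 399 nucleotides had a summed ratio of 0.278 (0.264 to 0.293), and the 24 members of 400 to 499 nucleotides had one of 0.50 (0.488 to 0.512). The 10 members of 500 to 599 nucleotides were at 0.697 (0.677 to 0.718), the 19 of 600 to 799 nucleotides at 0.869 (0.854 to 0.885) and the 8 of 800 to 999 nucleotides at 0.926 (0.897 to 0.955). The 4 longest, of 1000 nucleotides or more, were at 1.05 (1.01 to 1.10), with 5595 CPM in the mutants and 5311 CPM in Wild Type. The summed ratio was thus higher in each class than in the class of shorter transcripts before it.

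Genes outside the ribosome showed a weaker trend of the same direction. Over 6748 other genes the rank correlation of the log2 ratio with transcript length was 0.344, and over the 1922 of them at 100 CPM or more it was 0.458. Among transcripts under 300 nucleotides the median log2 ratio was -2.13 for the 8 members and -1.19 for 39 other genes. Between 300 and 399 nucleotides it was -1.81 for the 7 members and -1.10 for 95 other genes, and between 400 and 499 nucleotides it was -1.02 for the 24 members and -0.55 for 170 other genes. Between 500 and 599 nucleotides it was -0.53 for the 10 members and -0.26 for 218 other genes. The ratio itself, without a pseudocount, was below 0.5 for all 8 members and 69.2% of other genes under 300 nucleotides. Between 300 and 399 nucleotides it was for all 7 members and 62.1% of other genes. The classes were not matched for level, and the pseudocount of 10 CPM understates the log2 ratios of low genes. By median log2 ratio, members were below other genes of like length among the short transcripts. The medians lay closer together among the longer ones, at -0.16 for the 19 members and -0.04 for 521 other genes between 600 and 799 nucleotides and at -0.12 for the 8 members and 0.08 for 595 other genes between 800 and 999 nucleotides. For the 4 longest members the median was -0.03, against 0.21 for 2797 other genes from 1000 to under 2000 nucleotides. That class reaches beyond the longest member, at 1334 nucleotides. By protein length, all 11 members under 100 residues had a ratio below 0.5, as did 53.8% of 195 other genes of that size, and of the 30 members of 100 or more and under 150 residues 17 did, against 20.3% of 389 other genes. The median transcript was 505.5 nucleotides long for members and 1541.5 for other genes. What part transcript length played in the lower ratios was not tested beyond these values.

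**Figure D2:**
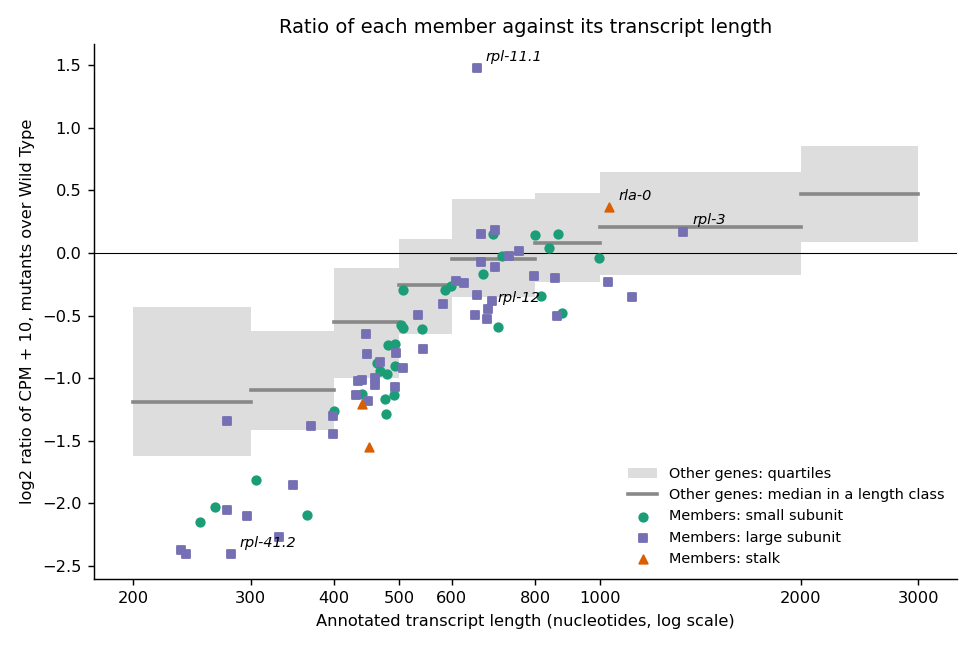
Log2 ratio of CPM + 10, mutants over Wild Type, of the 80 members (points, by subunit) against annotated transcript length on a log axis, with the median (line) and quartiles (band) of the other genes in each length class. Members under 300 nucleotides lie near -2.13 and those of 600 to 799 nucleotides near -0.16, while *rpl-11.1* stands alone at 1.47.

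*rpl-11.1* was the exception among the members. Together with *rpl-11.2* it encodes the large subunit protein RPL-11, which holds the 5S ribosomal RNA, and the autosomal copy is known in worms for its role in the germline. *rpl-11.1* (chromosome V, 3585312 to 3586064, minus strand) had 258 UMIs (352 CPM) in the mutants and 122 UMIs (120 CPM) in Wild Type, a ratio of 2.93 (2.35 to 3.66). *rpl-11.2* (chromosome X, 2241738 to 2242618, minus strand) had 950 UMIs (1298 CPM) in the mutants and 1338 UMIs (1321 CPM) in Wild Type, a ratio of 0.983 (0.903 to 1.07). The autosomal copy therefore made up 21.4% (19.1 to 23.8) of the UMIs of the pair in the mutants and 8.36% (6.99 to 9.90) in Wild Type. The transcripts of the pair are 654 and 731 nucleotides long, and the 19 members of 600 to 799 nucleotides, which include both, had a median log2 ratio of -0.16.

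The higher level of *rpl-11.1* was seen outside the germline-like cluster of 18 mutant and 4 Wild Type cells. The cells outside it are called somatic here and include 316 mutant and 132 Wild Type cells of clusters without a name. In somatic cells *rpl-11.1* had 249 UMIs (348 CPM) in the mutants and 110 UMIs (113 CPM) in Wild Type, a ratio of 3.09 (2.46 to 3.91). In free RNA, taken from barcodes with at most 200 UMIs, it was at 477 CPM in the mutants and 159 CPM in Wild Type. Both values lie above the somatic levels, and the part of free RNA in those levels was not tested. In the germline-like cells *rpl-11.1* had 9 UMIs (537 CPM) in the mutants and 12 UMIs (334 CPM) in Wild Type. Germline-like over somatic cells, the ratio was 1.54 (0.697 to 2.98) in the mutants and 2.97 (1.49 to 5.39) in Wild Type, and the difference between these ratios was not tested. The point value was higher in the mutants in each of the 5 clusters compared below, at 11 (2.20 to 106) in cluster 0, where Wild Type had 2 UMIs, 1.76 (0.979 to 3.09) in cluster 2, 2.69 (1.73 to 4.17) in the hypodermis-like cluster, 6.05 (2.20 to 23.2) in cluster 9 and 7.49 (2.25 to 39.1) in a body wall muscle-like cluster, where Wild Type had 3 UMIs.

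The other pair with a copy on the X chromosome encodes RPL-25, a protein at the exit of the tunnel. *rpl-25.1*, on X, had 99 UMIs (135 CPM) in the mutants and 298 UMIs (294 CPM) in Wild Type, a ratio of 0.460 (0.363 to 0.579). *rpl-25.2*, on chromosome I, had 282 UMIs (385 CPM) in the mutants and 686 UMIs (677 CPM) in Wild Type, a ratio of 0.569 (0.494 to 0.655). In contrast to *rpl-11.1*, both copies of this pair were lower in the mutants. In Wild Type, with 4 germline-like cells, 77 of the 80 members were lower in germline-like than in somatic cells by point value. The median ratio of the 80 was 0.638. In the mutants 49 of the 80 were lower, with a median ratio of 0.873. How many of all genes were lower was not counted, so these counts are not a result about the members. Among the 77 in Wild Type were both X-linked copies, *rpl-11.2* at 556 against 1349 CPM, a ratio of 0.413 (0.251 to 0.640), and *rpl-25.1* at 111 against 301 CPM, a ratio of 0.370 (0.100 to 0.957). The autosomal members *rps-21*, at 0.421, and *rps-18*, at 0.433, were about as low, so that a low ratio was not particular to the X-linked copies. Members as a whole gave 6.0% of UMIs in germline-like and 6.81% in somatic cells of the mutants, a ratio of 0.881 (0.827 to 0.938), and 6.98% in germline-like and 10.5% in somatic cells of Wild Type, a ratio of 0.665 (0.639 to 0.692). In the mutants *rpl-11.2* was at 656 CPM in germline-like and 1313 CPM in somatic cells, a ratio of 0.50 (0.249 to 0.899), and *rpl-25.1* had 0 UMIs in germline-like cells, where 3 UMIs would be 179 CPM, and 138 CPM in somatic cells. *rpl-25.2* was at 1.57 (0.744 to 2.93) in the mutants and 1.33 (0.902 to 1.90) in Wild Type, germline-like over somatic cells.

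**Figure D3:**
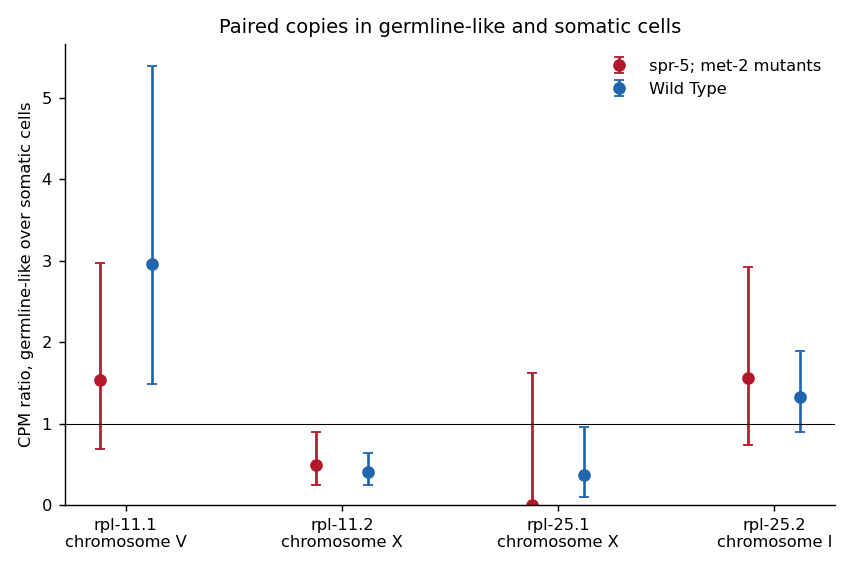
Ratio of CPM in germline-like over somatic cells for the paired genes with an X-linked copy, in the *spr-5; met-2* mutants (red) and in Wild Type (blue), with exact 95% counting intervals. In Wild Type *rpl-11.1* lies at 2.97 and the X-linked *rpl-11.2* and *rpl-25.1* lie at 0.413 and 0.370, where the median member is at 0.638. The intervals are wide because the 18 mutant and 4 Wild Type germline-like cells gave few UMIs of these genes. They do not cover the spread between cells.

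The remaining genes with a suffix in their symbol were lower in the mutants. *rpl-24.1* and *rpl-24.2* had ratios of 0.585 and 0.750. *rpl-36.A* and *rpl-36*, with ratios of 0.361 and 0.272, share only the number in their names and belong to different protein families, as do *rpl-7A* and *rpl-7*, with ratios of 0.868 and 0.880. Reads of near-identical copies, such as those of *rpl-41.1* and *rpl-41.2*, could be split between them by the counting.

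The difference was also seen cell by cell. The median mutant cell had 6.0% of its UMIs from members (lowest 1.42%, quartiles 4.63% and 7.79%, highest 36%), and the median Wild Type cell had 10.3% (lowest 2.41%, quartiles 6.70% and 15.4%, highest 44.0%). The distributions overlapped, with the upper quartile of the mutants above the lower quartile of Wild Type. At like depth Wild Type was again higher. Between 500 and 1000 UMIs the median was 6.04% in 290 mutant cells and 13.3% in 29 Wild Type cells, and between 1000 and 2000 UMIs it was 6.37% in mutant cells and 11.6% in 74 Wild Type cells. Between 2000 and 5000 UMIs it was 5.61% in 81 mutant cells and 10.6% in 72 Wild Type cells. When 500 UMIs were drawn from each cell, which left out 162 mutant cells with fewer, the medians were 6.0% in the mutants and 10.6% in Wild Type.

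Cells with more than 20% of their UMIs from members were 3 in the mutants and 33 (15.1%) in Wild Type. Of the 33 in Wild Type 23 were body wall muscle-like, and 2 of the 3 in the mutants were. Without all of these cells the ratio of the summed members was 0.697 (0.689 to 0.705). Among cells with less than 1% of UMIs from mitochondrially encoded genes, 115 in the mutants and 165 in Wild Type, it was 0.601 (0.589 to 0.614).

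By pooled shares, ribosomal protein transcripts ranked the 5 clusters compared in the same order in both genotypes. Cells were clustered without the members, and the genotypes were compared in clusters that held 15 or more cells from both. In a body wall muscle-like cluster (cluster 12, with the muscle myosin gene *myo-3* among its markers) members gave 9.50% of UMIs in 66 mutant cells and 18.3% in 34 Wild Type cells, a ratio of 0.518 (0.502 to 0.534). In the hypodermis-like cluster (cluster 3), marked by cuticle collagens, they gave 6.67% in 85 mutant cells and 10.8% in 30 Wild Type cells, a ratio of 0.618 (0.603 to 0.633). Cluster 2, which stayed without a name and had the muscle factors *hlh-1* and *unc-120* enriched, was at 6.13% in 63 mutant cells and 10.2% in 57 Wild Type cells, a ratio of 0.601 (0.584 to 0.618). By the median cell, cluster 12 was likewise highest, at 9.16% in the mutants and 20.8% in Wild Type, and cluster 2 came next, at 5.95% in the mutants and 12.3% in Wild Type. The hypodermis-like cluster and cluster 9 changed places by this measure, at 5.43% and 5.69% in the mutants, against 10.5% and 6.67% in Wild Type.

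The ratio was nearer to 1 in the clusters with the lowest pooled shares. Cluster 9, without a name, had 3 neuron markers enriched (*cnd-1*, *unc-86* and *hlh-14*) and 2 of pharynx. It was at 5.93% in 129 mutant cells and 7.48% in 39 Wild Type cells, a ratio of 0.793 (0.765 to 0.823). Cluster 0, also without a name, had 6 neuron markers enriched, among them *ngn-1* and *hlh-3*, and 2 of glia and excretory cells. It was at 4.29% in 16 mutant cells and 5.44% in 29 Wild Type cells, a ratio of 0.789 (0.745 to 0.835). The members were thus lower in the mutants in all 5 clusters, and at equal weights of these clusters the ratio was 0.622. Whether the ratios differ between clusters was not tested. The median log2 ratio of the members was -1.06 in cluster 12, -0.83 in cluster 3, -0.80 in cluster 2, -0.29 in cluster 9 and -0.39 in cluster 0, while that of all genes lay between -0.10 and 0.10. In each cluster the log2 ratio again followed transcript length, with rank correlations of 0.785 to 0.904 across members.

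**Figure D4:**
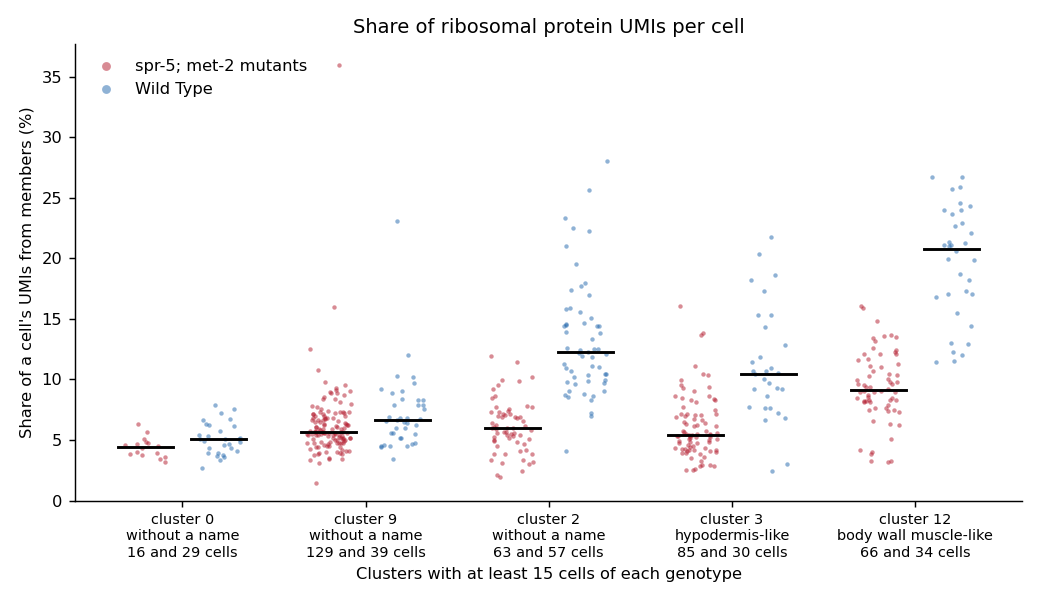
Share of each cell's UMIs from members in the 5 clusters with 15 or more cells from both genotypes, *spr-5; met-2* mutants (red) to the left of Wild Type (blue), with a black line at the median cell. The Wild Type median lies above that of the mutants in each cluster, and body wall muscle-like cells (cluster 12) are highest in both genotypes, at 9.50% and 18.3% of pooled UMIs.

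The smallest member, the stalk anchor and the most abundant member were followed through these clusters. *rpl-41.2* had ratios of 0.121 (0.0893 to 0.162) in cluster 12, where it was at 827 CPM in the mutants and 6806 CPM in Wild Type, and of 0.174 to 0.210 in the other 4 clusters. *rla-0* was above 1 by point value in all 5, between 1.07 and 1.44, with 3 of the 5 intervals above 1. *rpl-12* was at 0.678 to 0.806 in 4 clusters and at 0.995 (0.820 to 1.2) in cluster 0.

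Further clusters held too few Wild Type cells to compare and are given for the mutants alone. The pooled share of members was 9.94% in 36 cells and 10.9% in 18 cells of the other body wall muscle-like clusters, 10.3% in 25 intestine-like cells and 7.74% in 42 other mesoderm-like cells. It was 5.15% in 80 neuron-like cells and 6.0% in the 18 germline-like cells. A pooled share leans on the deeper cells, and the median cell gave another order. It was at 10.0% and 7.55% in the muscle-like clusters, 7.13% in other mesoderm-like, 6.14% in intestine-like, 5.26% in neuron-like and 3.82% in germline-like cells, against 6.0% over all mutant cells. Median depths in these clusters were 989 UMIs and 676.5 UMIs for muscle-like, 575 UMIs for intestine-like and 540 UMIs for neuron-like cells.

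Free RNA in the droplets without cells showed the same members at the same ends. In barcodes with at most 200 UMIs, 6636 in the mutants and 9121 in Wild Type, members gave 10.3% of UMIs in the mutants and 13.5% in Wild Type, a ratio of 0.761 (0.754 to 0.769). Their median log2 ratio there was -0.36, against 0.26 over all genes, and it had a rank correlation of 0.906 with transcript length. *rpl-41.2* was at 1662 CPM in the mutants and 5090 CPM in Wild Type, and *rpl-11.1* at 477 CPM in the mutants and 159 CPM in Wild Type, a ratio of 3.01 (2.38 to 3.83). Over the 80 members the ratios in free RNA and in cells had a rank correlation of 0.961, and 75 members had a higher ratio in free RNA. How many of all genes did so was not counted. The median log2 ratio over all genes was also higher in free RNA, at 0.26 against 0.22 in cells. The summed level of the members in cells was 0.661 of that in free RNA in the mutants and 0.769 in Wild Type. The cells held 33.1% of all UMIs of the mutant library and 59.8% of those of the Wild Type library. Free RNA also reaches droplets with cells, and its part in the cell values was not tested.

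**Figure D5:**
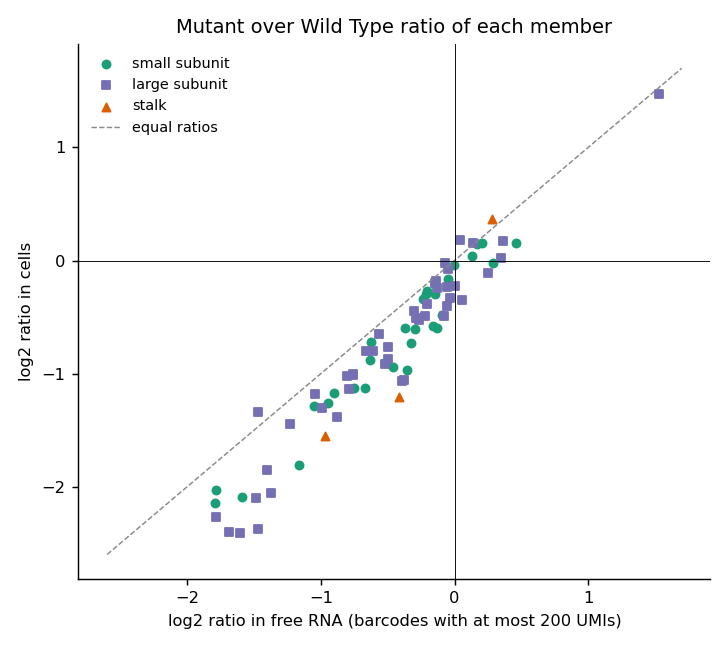
Log2 ratio of CPM + 10, mutants over Wild Type, of each of the 80 members in cells (vertical) against that in barcodes with at most 200 UMIs (horizontal), with a dashed line of equal ratios. Of the 80 members 75 lie below the line, a share that was not counted for all genes. *rpl-11.1* is far to the upper right at 1.47 in cells and 1.53 in free RNA.

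Genes that work beside the ribosome were compared from lists of translation and ribosome assembly genes. The ubiquitin fusion gene *ubq-2*, which encodes ubiquitin joined to a protein of the large subunit and so escapes the rule by symbol, had 460 UMIs (628 CPM) in the mutants and 1616 UMIs (1595 CPM) in Wild Type. Its ratio of 0.394 (0.354 to 0.437) was among those of the short members, and its transcript has 435 nucleotides. The other fusion gene, *ubl-1*, was at 912 CPM in the mutants and 989 CPM in Wild Type. *rack-1*, for a scaffold protein on the small subunit with a transcript of 1068 nucleotides, was at 1198 CPM in the mutants and 1175 CPM in Wild Type, a ratio of 1.02 (0.934 to 1.11).

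The 8 elongation factor genes summed to 13686 CPM in the mutants and 16348 CPM in Wild Type, a ratio of 0.837 (0.817 to 0.858). Within them *eef-1A.1*, which delivers aminoacyl-tRNA, was at 5158 CPM in the mutants and 7395 CPM in Wild Type, a ratio of 0.697, and *eef-1B.1*, of its exchange factor, was at 3002 CPM in the mutants and 2669 CPM in Wild Type, a ratio of 1.13. Of all genes 13.7% had an interval below 1 and 34% had one above. Of the 8 elongation factor genes 3 had an interval below 1 and 2 had one above. The 30 initiation factor genes were at 0.866 (0.832 to 0.901), 5 with an interval below 1 and 3 above, and *pab-1*, for poly(A) binding protein, was at 1930 CPM in the mutants and 2380 CPM in Wild Type. *inf-1*, for the RNA helicase eIF4A, was at 418 CPM in the mutants and 628 CPM in Wild Type. The sums of both lists were lower in the mutants by less than those of the ribosomal proteins.

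Of the 30 ribosome biogenesis genes counted, 11 had an interval below 1 (13.7% of all genes) and 4 above (34% of all genes). A ratio below 0.5 was found for 4 (5.35% of all genes). The sum of the list, which holds 31 genes, was at 0.778 (0.748 to 0.810). *fib-1*, for the rRNA methyltransferase fibrillarin, was at 598 CPM in the mutants and 1250 CPM in Wild Type, a ratio of 0.479 (0.429 to 0.534), and its transcript has 1375 nucleotides. *nog-1*, for a GTPase of large subunit assembly, was at 578 CPM in the mutants and 453 CPM in Wild Type, a ratio of 1.28. The 20 cytosolic tRNA synthetase genes had a summed ratio of 1.07 (1.0 to 1.14), and it was 0.890 under median of ratios scaling. Of the 19 counted singly 1 had an interval below 1 and 3 above, against 13.7% and 34% of all genes. The most abundant were *ears-1*, for glutamate, at 303 CPM in the mutants and 266 CPM in Wild Type, and *sars-1*, for serine, at 223 CPM in the mutants and 246 CPM in Wild Type.

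The summed ribosomal proteins of the mitochondria were lower in the mutants by less than those of the cytosol. Of 67 counted singly, 10 had an interval below 1 (13.7% of all genes) and 4 above (34% of all genes). Their median log2 ratio was -0.10. The ratio was below 0.5 for 9 of the 67, while 5.35% of all genes were that low, and above 2 for 2, against 20.9% of all genes. At the low levels of these genes the pseudocount of 10 CPM understates the log2 ratios. All 71 summed to 2841 CPM in the mutants and 3059 CPM in Wild Type, a ratio of 0.929 (0.878 to 0.982). Without the Wild Type barcodes over 10000 UMIs this ratio was 0.938, and its interval of 0.878 to 1.002 included 1. The single ratios had a rank correlation of 0.181 with transcript length, with a median transcript of 747 nucleotides. The most abundant, *mrpl-14* and *mrpl-15*, were at 91.5 and 75.1 CPM in the mutants, against 80.9 and 90.8 CPM in Wild Type. The 12 genes encoded in the mitochondrial genome were higher in the mutants. They summed to 21702 CPM in the mutants and 7403 CPM in Wild Type, a ratio of 2.93 (2.85 to 3.01). The interval lay above 1 for 11 of them, against 34% of all genes. *ctc-3*, for a subunit of cytochrome oxidase, was at 3971 CPM in the mutants and 682 CPM in Wild Type, and *nduo-6*, for a subunit of complex I, was at 3851 CPM in the mutants and 2819 CPM in Wild Type. These transcripts are part of the total to which CPM are scaled.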

How the data were processed

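Embryonic cells of 1 library per genotype were captured with the 10x 3' kit. The authors made the deposited UMI counts with Cell Ranger 3.0.2 on ce11 and used Seurat, for which no version is given. The counts are whole numbers, unfiltered and not normalized, for 11991 mutant and 12230 Wild Type barcodes, of which 10605 occur in both libraries.

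Cells were the 686 and 219 barcodes with the most UMIs, the numbers in the labels. Scrublet, at an expected rate of 4%, called 6 mutant and 11 Wild Type doublets, which were kept and removed in an alternative. Cells of both libraries were clustered in Scanpy 1.11.5 without the members (2000 variable genes, counts normalized to 10000, 20 components, 15 neighbours, Leiden resolution 1.0). A cluster was named "X-like" where at least 3 markers of 1 cell type were enriched at least 2-fold, with more than 1.5 times the markers of the next type or at least 2 among the 10 leading genes. It stayed unnamed where another type had more markers among these genes, or where it had none there and was shallow. This threshold was set here, and differences from the study may come from the rebuilt names. Clusters without a name held 316 mutant and 132 Wild Type cells.

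UMIs were pooled across all cells, or those of a cluster, and scaled to CPM. Ratios put the mutants over Wild Type with exact conditional binomial intervals, shares have Clopper-Pearson intervals and CPM have Poisson intervals. Genes with at least 20 UMIs over both libraries were compared singly, and log2 ratios used a pseudocount of 10 CPM. Positions and lengths came from the Ensembl release 115 annotation of the same assembly as ce11, taking the transcript with the longest coding sequence. The ratio intervals were tested on pooled counts simulated with known folds and without variation between cells or libraries. The other steps were not simulated. Named members are the 10 lowest and 6 highest log2 ratios, the 6 most abundant, the stalk genes, pairs with a suffix and, of related lists, the 2 most abundant genes. The naming of *rpl-42*, *rpl-37*, *rps-21*, *rps-18* and *ubl-1* and the choice of members shown within clusters were made after their values were seen. Members and lists were chosen with earlier results of these data known. Alternatives changed the cells kept, scaling, depth, weights, doublets, minimum, pseudocount and clustering.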

Additional observations from a re-analysis of the deposited data

Results flagged for a closer look

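In 6 members the ratio had a counting interval above 1 in 1 cluster and below 1 in another, among 80 members in 5 clusters (7.5%). Of all 3223 genes with enough UMIs in more than 1 of these clusters 1.92% did so, and the shares are not matched for depth. The difference between clusters was not tested for any of them. *rpl-13* was at 1.34 (1.03 to 1.76) in cluster 9, which has no name, and 0.774 (0.619 to 0.966) in the body wall muscle-like cluster 12. *rpl-6* was at 1.36 (1.0 to 1.87) and *rps-5* at 1.47 (1.10 to 1.97) in cluster 9, against 0.761 and 0.712 in cluster 12. In cluster 0, which has no name and only 16 mutant cells, *rpl-4* was at 2.18 (1.13 to 4.15) and *rps-8* at 1.74 (1.07 to 2.79), against 0.594 and 0.759 in cluster 2. *rps-4* was at 1.92 (1.24 to 2.94) in cluster 0 and 0.803 (0.646 to 0.989) in the hypodermis-like cluster 3. The higher ratio came each time from cluster 0 or cluster 9, the clusters with the lowest pooled member shares.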

How the results depend on the processing

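The summed members were lower in the mutants under every alternative run. The ratio of 0.655 was 0.611 without barcodes over 10000 UMIs, 0.544 under median of ratios scaling, 0.630 scaled to genes that are not members, 0.581 with 500 UMIs drawn per cell, 0.561 with cells weighted equally, 0.648 without doublets and 0.679 without the 10 members whose symbol has a suffix. Of the alternatives chosen after seeing the data, it was 0.534 in cells of 1000 to 2000 UMIs, 0.648 without the cell barcodes found in both libraries, 0.601 in cells with under 1% mitochondrial UMIs and 0.697 without cells over 20% member UMIs. The median log2 ratio was -0.95 under median of ratios scaling and -0.99 in cells of 1000 to 2000 UMIs. The 8 intervals above 1 became 2 without barcodes over 10000 UMIs, 2 under median of ratios scaling, 4 scaled to other genes, 2 with 500 UMIs drawn, 1 in cells of 1000 to 2000 UMIs and 3 under 1% mitochondrial UMIs. Without cells over 20% member UMIs 10 intervals lay above 1 and 60 below. *rpl-11.1* had its interval above 1 in all 11 settings with intervals and 58 members had theirs below 1 in all 11. Without the 10 with a suffix, 0 had a ratio above 2. Without barcodes over 10000 UMIs and with cells weighted equally, the ratio was 0.614 and 0.562 for the small subunit, 0.601 and 0.549 for the large subunit and 0.758 and 0.770 for the stalk. At equal cluster weights it was 0.632 at Leiden resolution 0.5 and 0.581 without barcodes over 10000 UMIs. Without those barcodes the elongation factors were at 0.783, the ubiquitin fusions with RACK1 at 0.667, ribosome biogenesis at 0.831 and mitochondrially encoded genes at 2.70. The mitochondrial ribosomal proteins were at 0.938 in that setting, with an interval of 0.878 to 1.002 that included 1. Under median of ratios scaling elongation factors were at 0.696, initiation factors at 0.720, ubiquitin fusions with RACK1 at 0.606, ribosome biogenesis at 0.647, tRNA synthetases at 0.890, mitochondrially encoded genes at 2.44 and mitochondrial ribosomal proteins at 0.772. That scaling turned the direction for the tRNA synthetases. In barcodes with at most 100 UMIs the ratio in free RNA was 0.852. The causes were not tested. The rank correlation with protein length was 0.878 to 0.906 in the settings run. No paired analysis was possible because each genotype has 1 library. With 15 UMIs in the mutants, *rpl-37* is the member that depth limits most.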
